A study of Mus musculus with 12 samples.

Results

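Scavenger receptors and C-type lectin receptors were examined in the mouse line BV-2, immortalised microglia, which are the macrophages resident in brain tissue. The genes were the class A scavenger receptors Marco and Msr1, the class F receptor Scarf1, the class B receptors Scarb1 and Cd36, the C-type lectin receptors Clec4d, Clec4e, Clec5a and Clec7a, and the soluble collectin Colec11. Probes were assigned by matching their RefSeq accessions to these symbols, and 9 of the 10 genes, represented by 13 probes, were found among the 17305 symbols of the array. No probe matched Clec7a, which was not analysed. All 9 genes passed the filter on dim probes and were tested among 19323 genes and transcripts.

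Scavenger receptors bind modified lipoproteins, bacterial surfaces and dying cells, and macrophages use them to take up such particles. The C-type lectin receptors of the Clec4 and Clec5 families sense microbial glycolipids and damaged cells and signal through the adaptors Fcer1g or Tyrobp to the kinase Syk. Collectins are secreted lectins that recognise sugars and can start the lectin pathway of complement.

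The cells were left untreated, or were exposed for 6 h to 20 µM curcumin, a polyphenol of turmeric, to 100 ng/ml LPS (lipopolysaccharide, a bacterial membrane component that activates Toll-like receptor 4), or to LPS and curcumin together. Each of the 4 groups had 3 arrays. The labels name neither a vehicle for the untreated cells nor separate cultures, so the p-values measure the spread between these samples, which may be technical. Each of 3 slides held 1 array of every group, and each group kept 1 position on the slides throughout, so that effects of group and of position cannot be told apart.

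All values below are log2 processed signal relative to the 75th percentile of the same array, so that 0 is the level of that percentile and 1 unit is a doubling; values for single arrays are in the order of replicates 1, 2 and 3. Differences are given ± SE, and adjusted p-values come from limma with Benjamini-Hochberg adjustment over all 19323 genes and transcripts. Where the arrays of groups are said not to overlap, this is a description and not a test. The share of all genes that separate in the same way was not counted. On each array 58.0% to 65.9% of spots were well above background and none was saturated. Of the 11 matched macrophage and microglia markers, 10 were well above background on all 12 arrays. The exception, Cx3cr1, was above it on 11, at mean levels of −4.14 untreated, −6.34 with curcumin, −2.80 with LPS and −7.40 with both. In each list of 5 markers of another cell type, 1 or 2 were also above it on all 12. The criterion therefore does not establish the identity of the line. The LPS+curcumin array of replicate 1 stood apart from its group: it correlated with the LPS arrays at a mean r of 0.982 over genes and with the other LPS+curcumin arrays at 0.944, whereas LPS+curcumin replicates 2 and 3 correlated with the curcumin arrays at 0.984 and 0.985. LPS+curcumin replicate 2 carried 1594 outlier spots, while no other array had more than 163. Values of the 9 genes are also given without LPS+curcumin replicate 1 where the call changes, and for some others. A value given only with all arrays may still depend on that array.

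The upstream sequences of the 4 genes that rose with LPS are shown because these genes moved together in 1 comparison. They are RefSeq windows of build GRCm38.p6, the 250 bases before the annotated start, written 5′ to 3′ on the gene's strand, with capitals marking matches to the C/EBP motif TTNNGNAA on either strand.
Marco, chr1:120505025-120505274, minus strand: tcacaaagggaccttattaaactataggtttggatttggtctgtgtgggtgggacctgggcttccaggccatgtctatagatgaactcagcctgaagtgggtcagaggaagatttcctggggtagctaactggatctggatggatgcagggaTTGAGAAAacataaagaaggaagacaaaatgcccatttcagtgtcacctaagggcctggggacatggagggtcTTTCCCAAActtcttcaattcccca
Clec4d, chr6:123261857-123262106, plus strand: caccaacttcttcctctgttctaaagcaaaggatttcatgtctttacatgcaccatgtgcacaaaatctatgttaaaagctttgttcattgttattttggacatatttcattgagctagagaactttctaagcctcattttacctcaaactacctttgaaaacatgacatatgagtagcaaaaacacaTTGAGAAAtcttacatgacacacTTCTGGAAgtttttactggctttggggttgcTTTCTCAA
Clec4e, chr6:123289872-123290121, minus strand: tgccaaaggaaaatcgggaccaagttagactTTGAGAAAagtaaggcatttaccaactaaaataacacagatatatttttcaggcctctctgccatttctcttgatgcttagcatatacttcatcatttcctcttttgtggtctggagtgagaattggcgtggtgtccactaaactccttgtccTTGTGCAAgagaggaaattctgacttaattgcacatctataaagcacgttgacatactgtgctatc
Clec5a, chr6:40585806-40586055, minus strand: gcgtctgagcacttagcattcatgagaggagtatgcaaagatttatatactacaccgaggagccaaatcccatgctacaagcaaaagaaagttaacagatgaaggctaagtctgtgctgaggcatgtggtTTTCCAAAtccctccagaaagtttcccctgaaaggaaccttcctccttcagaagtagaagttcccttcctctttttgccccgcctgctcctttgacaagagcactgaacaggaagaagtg
The Marco stretch holds 3 matches, a pair of which overlap, the Clec4d stretch 3, the Clec4e stretch 2 and the Clec5a stretch 1. Of 32851 RefSeq promoter windows of 300 bases (250 before and 50 after the start), 40.7% hold at least 1 such match, so its presence is common. Of the 7 listed genes with a window, 5 hold it, Cd36 being the fifth. None of the 7 holds a match to NF-kB by its motif (8.46% of all windows), PU.1 (GAGGAAGT, 3.2%), AP-1 (TGANTCA, 7.81%), the antioxidant response element (TGACNNNGC, 12.4%) or the amino acid response element (TGATGNAA, 3.97%), each searched on both strands. Clec4d and Clec4e both lie on chromosome 6, on opposite strands.

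LPS raised 4 of the 9 genes and lowered none: Marco rose 23.9-fold, Clec4e 10.1-fold, and Clec5a and Clec4d by 1.13 and 0.997 on the log2 scale. Across all genes and transcripts 5.73% were called in this comparison, 4.12% higher and 1.61% lower. Curcumin alone raised Colec11 155-fold and Scarf1 at least 86.7-fold, 2 of 9 genes, beside 29.2% of all genes called (21.9% higher and 7.28% lower). Scarf1 passed the filter only through the curcumin arrays, where it was high. In cells given LPS, added curcumin changed 4 of 9 genes against 18.7% of all genes (12.7% higher and 5.99% lower): Marco and Clec5a fell, Colec11 and Scarf1 rose. Between LPS+curcumin and curcumin alone no gene of the 9 was called by limma, 1 had an unadjusted p below 0.05, and 0.212% of all genes were called. No interaction of LPS and curcumin was called among the 9 either, 2 having an unadjusted p below 0.05, with 0.73% of all genes called. The comparisons of LPS with untreated and of LPS+curcumin with LPS share the LPS arrays, so a rise in the former and a fall in the latter are not independent. In bulk RNA, fewer cells expressing a gene and less RNA per cell cannot be told apart.

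**Figure D1:**
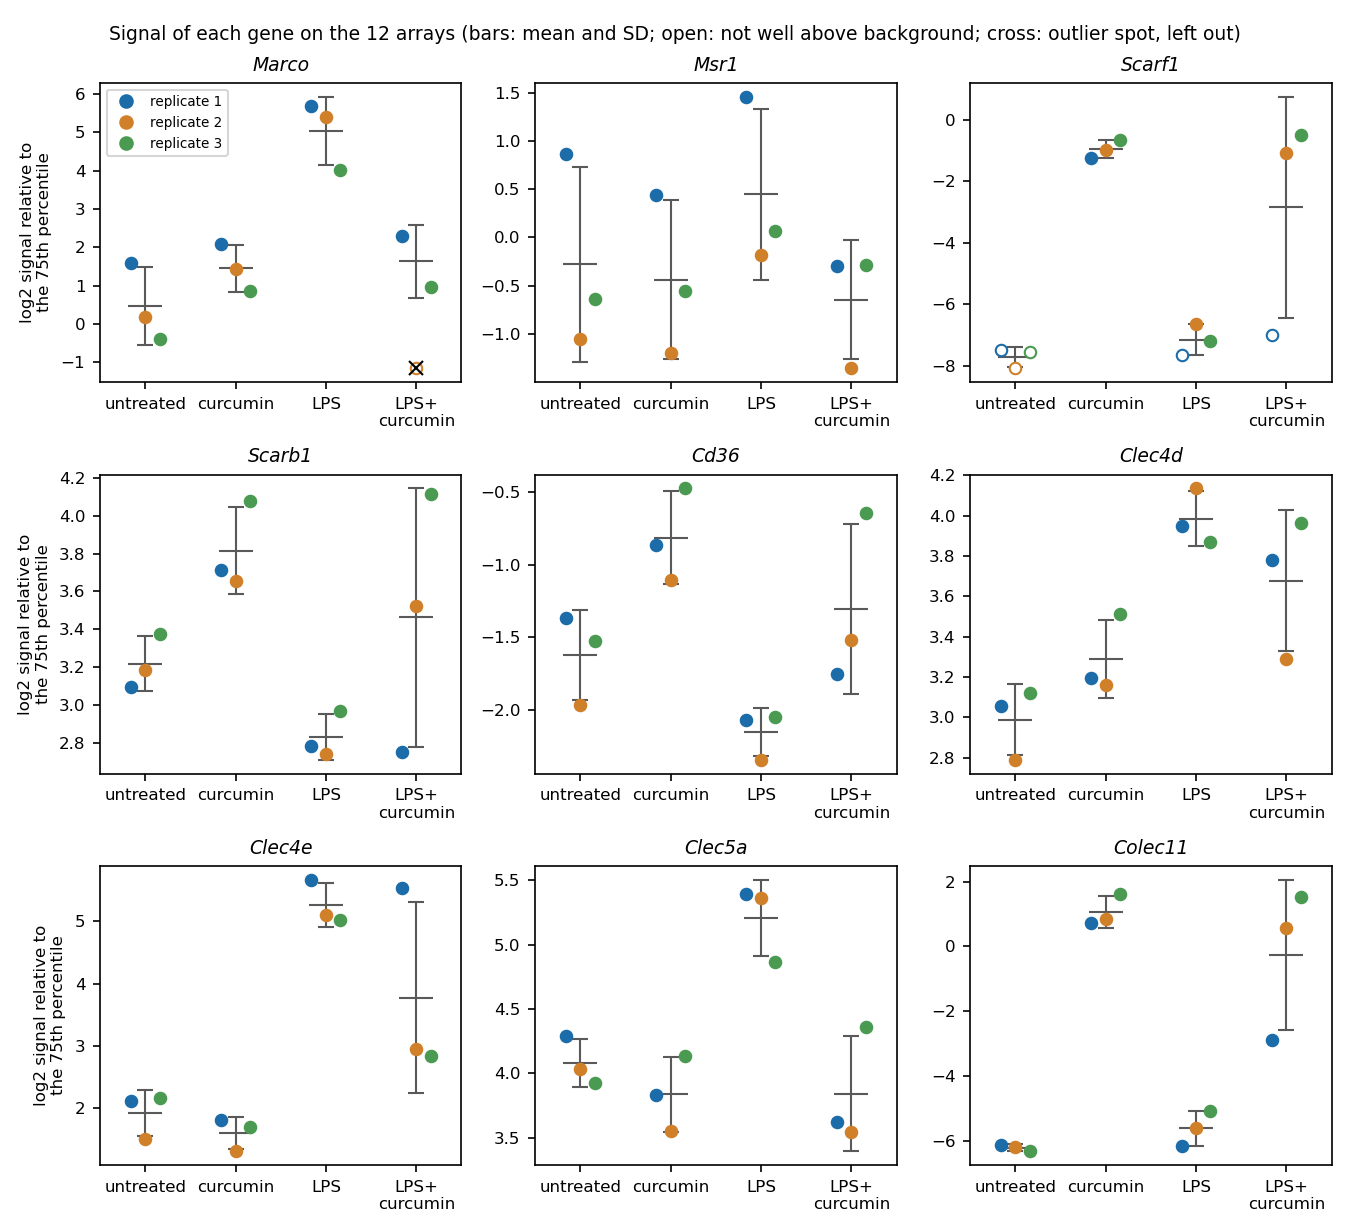
Level of each of the 9 genes on the 12 arrays, as log2 processed signal relative to the array's 75th percentile, with 1 point per array, the groups along the horizontal axis and bars for the mean and SD (n = 3, or 2 for Marco with both agents); open points are not well above background and the cross is the outlier spot left out. Marco and Clec4e stand highest on the LPS arrays, while Colec11 and Scarf1 are near the bottom of the scale on untreated and LPS arrays and high on the curcumin arrays.

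Marco, a class A scavenger receptor that binds bacteria and particles, was the most LPS-responsive of the 9 genes. Its levels were 1.59, 0.17 and −0.39 in untreated cells and 5.69, 5.40 and 4.02 with LPS. With curcumin alone they were 2.08, 1.42 and 0.85. With both agents they were 2.30 and 0.96 on replicates 1 and 3, the spot of replicate 2 (−1.16) being marked as an outlier and left out. Every LPS array thus lay above every array of the other 3 groups, and those groups overlapped one another. The LPS effect was 4.58 ± 0.61 (23.9-fold, adjusted p = 0.00136), the 117th highest of 19323, and 4.11, 5.23 and 4.41 within slides 1, 2 and 3.

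With curcumin added to LPS, Marco was lower by 10.6-fold (−3.41 ± 0.69, adjusted p = 0.0109), and by −3.39 and −3.06 within slides 1 and 3. Without LPS+curcumin replicate 1 the difference was −4.08 (adjusted p = 0.00252), and without LPS+curcumin replicate 3 it was −2.74 and not called (adjusted p = 0.0715). LPS+curcumin and curcumin alone differed by 0.18 ± 0.69 (adjusted p = 0.973, 95% interval −1.35 to 1.71). Curcumin alone gave 0.99 ± 0.61 (adjusted p = 0.216), positive on all 3 slides, which passed the test with slide as a block (adjusted p = 0.0183) and changed sign with spike-in scaling (−0.11). The interaction, which asks whether curcumin acted differently with LPS than without, was −4.40 ± 0.92 (adjusted p = 0.0772). It was called with the slide block (−4.39, adjusted p = 0.00195), without LPS+curcumin replicate 1 (−5.07, adjusted p = 0.0256) and without untreated replicate 1 (−4.97, adjusted p = 0.0409).

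Msr1, the other class A receptor and a classical receptor for modified lipoproteins, was not called in any of the 5 comparisons. Its levels were 0.86, −1.06 and −0.64 untreated, 0.44, −1.20 and −0.56 with curcumin, 1.46, −0.19 and 0.07 with LPS, and −0.30, −1.36 and −0.28 with both. The spread within groups was wide, replicate 1 being the highest array of the untreated, curcumin and LPS groups. LPS gave 0.73 ± 0.61 (adjusted p = 0.759, 95% interval −0.61 to 2.06), with 0.60, 0.87 and 0.71 within the slides. Added curcumin gave −1.09 ± 0.61 against LPS alone (adjusted p = 0.199), and −1.27 without LPS+curcumin replicate 1 (adjusted p = 0.130). The difference passed with slide as a block (adjusted p = 0.0200). Msr1 had 3 probes: in that comparison another probe gave −2.55 (adjusted p = 0.0227) and the third −1.05 (adjusted p = 0.20), so the probes agreed in sign and disagreed on the call.

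Scarf1, a receptor for modified lipoproteins and dying cells, went from background to a clear signal with curcumin. Its values were −7.50, −8.09 and −7.54 untreated, where the probe was well above background on none of the arrays, and −1.23, −0.99 and −0.65 with curcumin. With LPS they were −7.65, −6.65 and −7.18, well above background on 2 of 3 arrays. With both agents they were −7.00, −1.07 and −0.48: replicate 1 was at the level of the LPS arrays and not well above background, and replicates 2 and 3 were at the level of the curcumin arrays.

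Curcumin raised Scarf1 at least 86.7-fold (fitted 6.75 ± 1.28, adjusted p = 0.00445), a bound that sets the curcumin mean against the lowest signal well above background on the untreated arrays. The call held without any single array, the filter not being redone. Scarf1 passed that filter only through the curcumin arrays, so this rise rests on the arrays that let it be tested. Added to LPS, curcumin gave 4.31 ± 1.28 (adjusted p = 0.0402), and only 0.64 within slide 1 against 5.58 and 6.70 within slides 2 and 3. Without LPS+curcumin replicate 1 it was 6.38 ± 0.32 (adjusted p = 1.5e-07), but without any other single array it was not called (adjusted p from 0.0554 to 0.155), nor with quantile scaling (adjusted p = 0.0638). LPS alone gave no call (adjusted p = 0.986), and its arrays overlapped the untreated ones.

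Scarb1, which transfers cholesterol from high-density lipoprotein, was not called, although 2 of its comparisons separated the arrays fully. Its levels were 3.10, 3.19 and 3.38 untreated, 2.79, 2.74 and 2.97 with LPS, 3.72, 3.65 and 4.08 with curcumin, and 2.75, 3.52 and 4.11 with both. Every LPS array was below and every curcumin array above every untreated array, while the LPS+curcumin arrays ran from the LPS level (replicate 1) to the curcumin level (replicate 3). The LPS difference was −0.39 ± 0.30 (adjusted p = 0.703) and the curcumin difference 0.60 ± 0.30 (adjusted p = 0.133). LPS+curcumin against LPS gave 0.63 ± 0.30 (adjusted p = 0.143). Without LPS+curcumin replicate 1 the latter became 0.99 (adjusted p = 0.00407) and the curcumin difference reached an adjusted p of 0.0286. With spike-in scaling both changed sign (−0.51 and −0.11).

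Cd36, the class B receptor that takes up long-chain fatty acids and oxidised lipoproteins, showed the same order of group means as Scarb1. It measured −1.37, −1.96 and −1.53 untreated and −2.07, −2.34 and −2.05 with LPS, without overlap. It measured −0.87, −1.11 and −0.47 with curcumin and −1.75, −1.52 and −0.65 with both. LPS gave −0.53 ± 0.30 (adjusted p = 0.487), curcumin 0.80 ± 0.30 (adjusted p = 0.0614), and curcumin on top of LPS 0.85 ± 0.30 (adjusted p = 0.0686), none of them called. Both curcumin differences passed with slide as a block (adjusted p = 0.0258 and 0.0287) and without LPS+curcumin replicate 1 (0.0270 and 0.0113). With spike-in scaling they were −0.30 and 0.10, so the sign of the first depends on the scaling.

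Clec4d, which recognises mycobacterial glycolipid and pairs with Clec4e, rose modestly with LPS. Its levels were 3.05, 2.79 and 3.12 untreated and 3.95, 4.14 and 3.87 with LPS, with every LPS array above every untreated one. They were 3.20, 3.16 and 3.51 with curcumin and 3.78, 3.29 and 3.96 with both. The LPS effect was 0.997 ± 0.21 (adjusted p = 0.0191) and was positive on all slides (0.90, 1.35 and 0.75). It lost its call without any of the untreated arrays or of LPS replicates 1 and 2 (adjusted p from 0.0509 to 0.108) and with spike-in scaling (0.72, adjusted p = 0.294). The curcumin differences of Clec4d, 0.30 ± 0.21 alone (adjusted p = 0.273) and −0.31 ± 0.21 with LPS (adjusted p = 0.292), did not pass the test and had 95% intervals of −0.17 to 0.77 and −0.78 to 0.16. The latter was −1.04 with median scaling (adjusted p = 0.0515) and −1.05 with spike-in scaling, where it was called (adjusted p = 0.0453).

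Clec4e, the sensor of mycobacterial cord factor also called Mincle, rose 10.1-fold with LPS. Its levels were 2.12, 1.51 and 2.16 untreated and 5.67, 5.09 and 5.03 with LPS. With curcumin they were 1.80, 1.31 and 1.70. With both agents they were 5.54, 2.95 and 2.84: replicate 1 was among the LPS arrays, while replicates 2 and 3 were between the LPS and the curcumin arrays. The LPS effect was 3.34 ± 0.59 (adjusted p = 0.00561, the 210th highest of 19323), called without any single array and not with spike-in scaling (3.06, adjusted p = 0.0628).

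Curcumin alone gave −0.32 ± 0.59 for Clec4e (adjusted p = 0.671). Added to LPS it gave −1.49 ± 0.59 (adjusted p = 0.0943), and −0.13, −2.15 and −2.19 within slides 1, 2 and 3. The difference passed with slide as a block (adjusted p = 0.0447), and without LPS+curcumin replicate 1 it was −2.37 ± 0.27 (adjusted p = 5.05e-05). Clec4e was also the gene of the 9 with an unadjusted p below 0.05 between LPS+curcumin and curcumin alone, where it differed by 2.17 ± 0.59 (adjusted p = 0.428). That difference was 3.74, 1.64 and 1.14 within slides 1, 2 and 3, and 1.29 without LPS+curcumin replicate 1 (adjusted p = 0.103). The Clec4e interaction was −1.17 ± 0.83 (adjusted p = 0.9999) with all arrays and −2.05 (adjusted p = 0.0116) without LPS+curcumin replicate 1.

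Clec5a, a receptor coupled to Tyrobp that is known for flavivirus recognition, rose with LPS and fell when curcumin was added. Its levels were 4.29, 4.03 and 3.93 untreated, 5.39, 5.37 and 4.86 with LPS, 3.83, 3.55 and 4.13 with curcumin, and 3.62, 3.54 and 4.36 with both. The 3 LPS arrays were above all 9 others, which overlapped between groups. The LPS effect was 1.13 ± 0.26 (adjusted p = 0.0306). It lost its call without any of the untreated arrays or of LPS replicates 1 and 2 (adjusted p from 0.0598 to 0.132) and with spike-in scaling (0.85, adjusted p = 0.162).

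The fall of Clec5a with added curcumin, −1.37 ± 0.26 or 2.58-fold (adjusted p = 0.00779), was called without any single array and was seen on each slide (−1.77, −1.82 and −0.51). Clec5a at LPS+curcumin and at curcumin alone differed by 0.00 ± 0.26 (adjusted p = 0.999, 95% interval −0.58 to 0.58). Its other 2 probes gave −1.09 (adjusted p = 0.0134) and −2.84 (adjusted p = 0.000423) for LPS+curcumin against LPS, and 1.05 and 1.83 for LPS against untreated, all called. They disagreed on curcumin alone, for which the reported probe gave −0.24 ± 0.26 (adjusted p = 0.473) and another −1.19 (adjusted p = 0.0148). The reported probe was itself called lower with curcumin alone under quantile (−0.57, adjusted p = 0.0302), median (−1.08, adjusted p = 0.0301) and spike-in scaling (−1.35, adjusted p = 0.0064).

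Colec11, a collectin secreted mainly by liver and kidney that binds sugars of microbes, had the largest fitted curcumin response of the 9. Its levels were −6.13, −6.21 and −6.34 untreated and −6.18, −5.60 and −5.09 with LPS. They were 0.71, 0.83 and 1.61 with curcumin and −2.90, 0.57 and 1.53 with both. The probe was well above background on all 12 arrays, but its processed signal was only 9.57 to 25.2 on arrays without curcumin. The size of its fold therefore depends on the background correction, the curcumin change being 4.59 with normexp. The lowest curcumin-treated array, LPS+curcumin replicate 1, was still above every array without curcumin, and it was below every other array with curcumin. Curcumin raised Colec11 by 7.28 ± 0.86 (155-fold, adjusted p = 0.000607), the 25th highest change of 19323, and by 5.36 ± 0.86 on top of LPS (40.9-fold, adjusted p = 0.00347), the 27th highest. Without LPS+curcumin replicate 1 the latter was 6.67 (adjusted p = 3.02e-07). LPS itself gave 0.60 ± 0.86 (adjusted p = 0.941).

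Because Colec11 is a liver gene, hepatocyte markers were measured on the same arrays. The summed level of 5 markers, in units of the 75th percentile, was 0.0409 to 0.0538 on untreated arrays, 0.0565 to 0.0665 with LPS, 0.329 to 0.467 with curcumin and 0.0659 to 0.449 with both. Alb, the serum albumin gene, had a mean level of −9.17 untreated and −2.56 with curcumin and was well above background on 5 arrays. Apoa1, an apolipoprotein gene, was above it on 5 arrays as well. Tat was above it on all 12, and Ttr and Cyp2e1 on none. Of the other cell type lists, the summed astrocyte and neuron markers were also higher with curcumin (12.4 to 15.8 against 7.48 to 9.23 untreated, and 15.1 to 28.5 against 9.42 to 14.9). In each of these lists 1 of 5 markers was well above background on all 12 arrays (Aldoc and Syn1) and 2 of 5 on none, Gfap and Gja1 for astrocytes and Snap25 and Map2 for neurons. Each sum was mostly that 1 gene, Aldoc being 3.03 untreated and 3.81 with curcumin, and Syn1 3.63 and 4.39. With curcumin against untreated, the sums were 328 to 445 against 221 to 343 for microglia and macrophages. They were 0.435 to 0.556 against 0.353 to 0.509 for oligodendrocytes and 5.78 to 7.29 against 6.73 to 7.22 for endothelium. The part of these markers in the Colec11 and Scarf1 results was not tested.

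**Figure D2:**
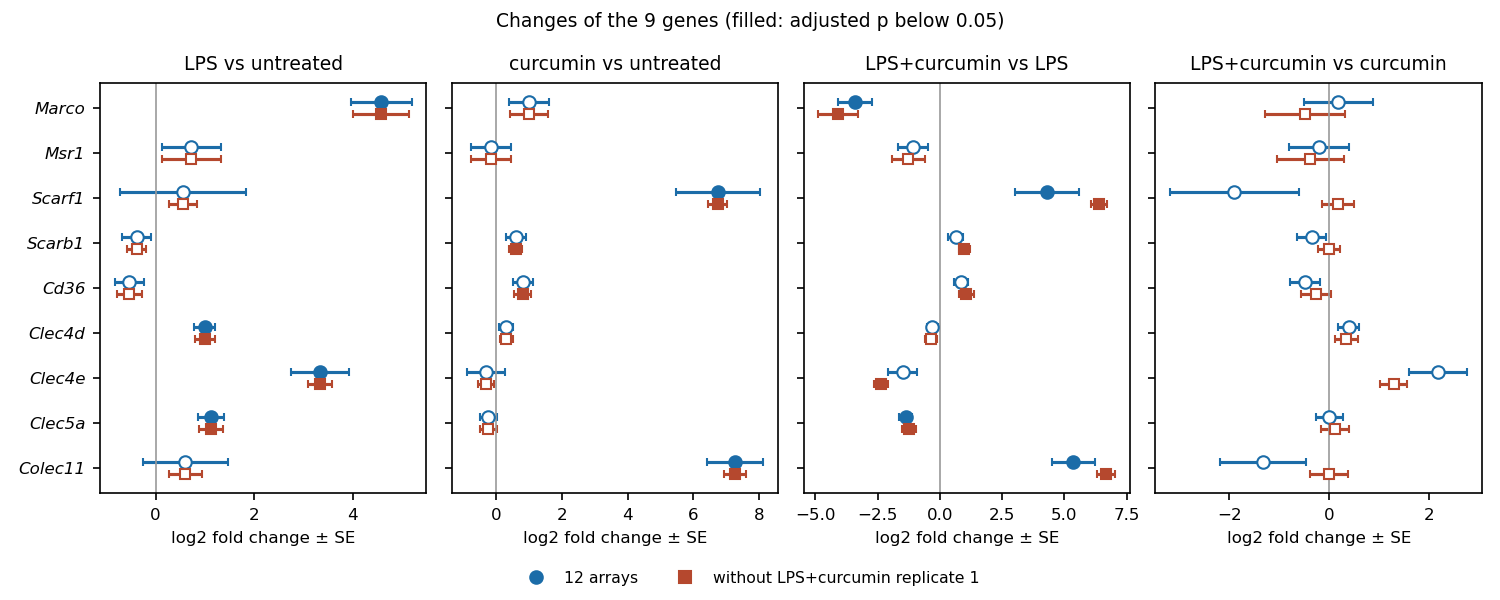
Log2 fold changes ± SE of the 9 genes in 4 comparisons, from all 12 arrays (circles) and without LPS+curcumin replicate 1 (squares); filled symbols have an adjusted p below 0.05. Leaving out that array brings Clec4e to −2.37 and Scarb1 to 0.99 in LPS+curcumin against LPS, both then called.

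LPS+curcumin replicate 1 did not resemble the LPS arrays in all of these genes. On this array Clec4e (5.54), Scarf1 (−7.00) and Scarb1 (2.75) were within the range of the LPS arrays. Marco (2.30) and Clec5a (3.62) were below every LPS array, and Colec11 (−2.90) was between the LPS and the curcumin arrays. Without this array 7 of the 9 genes were called in LPS+curcumin against LPS, against 54.8% of all genes, and 4 in curcumin against untreated, against 49.6%. With slide as a block the counts were likewise 7 (28.9% of all genes) and 4 (42.1%), with 4 (7.79%) for LPS and 1 (1.19%), Marco, for the interaction.

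**Figure D3:**
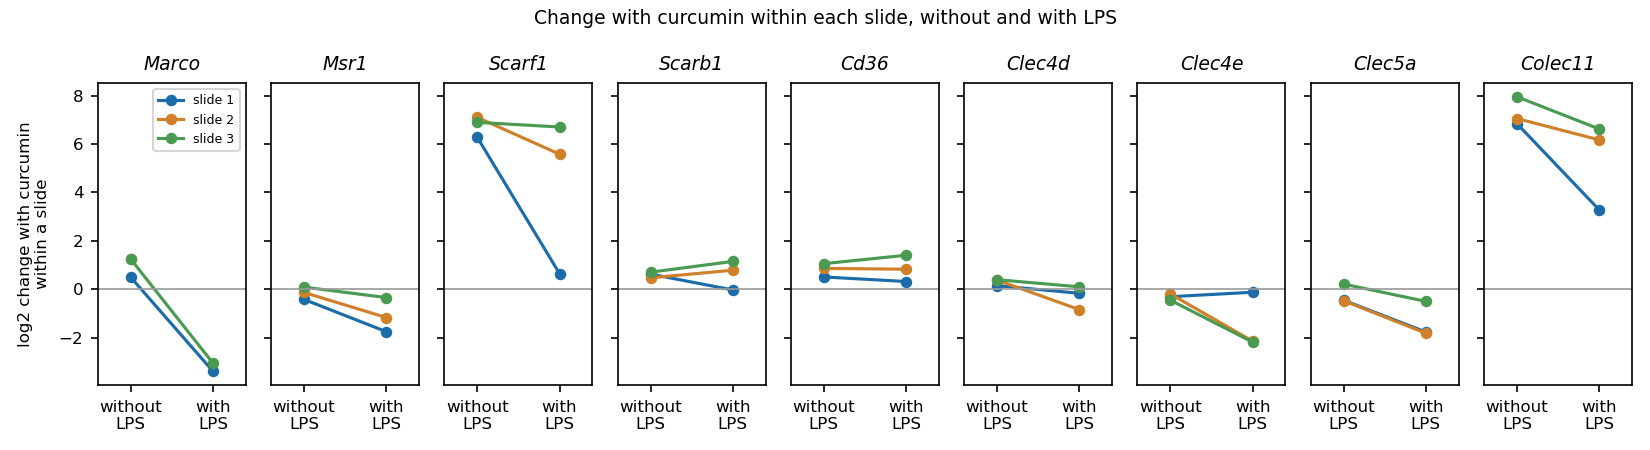
Change with curcumin between single arrays of the same slide, in log2 units, with 1 panel per gene; in each panel a line per slide joins the change without LPS to the change with LPS. With LPS, Scarf1 and Clec4e lie at 0.64 and −0.13 on slide 1 and far from 0 on slides 2 and 3, while Clec5a is below 0 on all 3. Marco, whose slide 2 spot with both agents was left out as an outlier, is below 0 on slides 1 and 3.

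The scale of the arrays bears on the small curcumin differences. Relative to the 75th percentile the median of all genes was 0.41 higher with curcumin than untreated and 0.32 higher with LPS+curcumin than with LPS, and relative to the spike-in probes it was −0.69 and −0.42. LPS moved it by 0.01 and −0.27 under the same scalings. Against these shifts the curcumin rises of Colec11 (6.17 with spike-in scaling) and Scarf1 (5.65) remained large, though smaller than with the 75th percentile. Marco (−4.04) and Clec5a stayed lower in LPS+curcumin than in LPS. The curcumin differences of Scarb1, Cd36, Clec4d and Marco without LPS had no settled direction.

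The background correction and the arrays in the fit bore on the calls as well. With normexp correction Marco and Clec4e were the genes still called with LPS, and Marco (−3.43, adjusted p = 0.044) was the gene still called in LPS+curcumin against LPS. The curcumin changes of Colec11 and Scarf1 were then 4.59 (adjusted p = 0.0135) and 3.44 (adjusted p = 0.0145), and on top of LPS 3.34 (adjusted p = 0.0643) and 1.98 (adjusted p = 0.324). In a fit of the LPS and LPS+curcumin arrays alone, Colec11 (adjusted p = 0.0549), Marco (0.0583), Clec5a (0.0825) and Scarf1 (0.169) were not called.

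**Figure D4:**
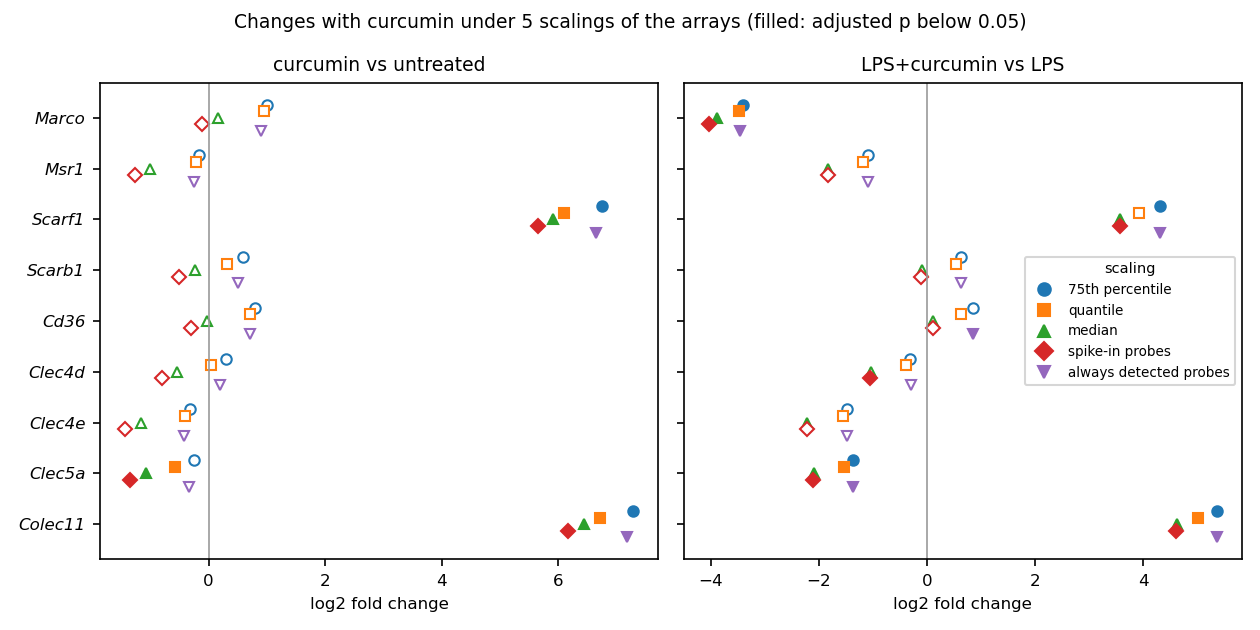
Log2 changes of the 9 genes with curcumin, without LPS (left) and with LPS (right), under 5 scalings of the arrays; filled symbols have an adjusted p below 0.05. Without LPS, Scarb1 runs from 0.60 with the 75th percentile to −0.51 with spike-in probes, while Colec11 stays above 6 under all 5.

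The genes whose levels most resembled those of the receptors were taken over the named genes tested, as a description over arrays that share slides and scaling. Over 11 arrays Marco was closest to Usp25 (Pearson r = 0.986), Gsap (0.980) and Epsti1 (0.978). Over 12 arrays Clec4e was closest to Znrf1 (0.989), the kinase Src (0.984) and Slc4a7 (0.984), and Clec5a to Trem1 (0.977), Pdgfrb (0.973) and Wnt6 (0.968). Clec4d was closest to Gch1 (0.965), the first enzyme of tetrahydrobiopterin synthesis, Lilrb4a and Tgm2. The curcumin-raised pair had other companions: Colec11 lay closest to Amph (0.996), Abcg5 (0.995) and Aff4 (0.994), and Scarf1 to Ifna5 (0.997), Syne4 and Gzmm. Scarb1 was closest to Aldh9a1, Got1 and Anxa11 (0.986 to 0.988), Cd36 to Rnf141 (0.969), Ddx50 and Tpp1, and Msr1 to Mgll (0.949), Pld2 and Endov.

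Of the other scavenger receptors, 13 of the 18 counted were tested. Counts of this and the following lists stand beside 5.73% of all genes called with LPS, 29.2% with curcumin and 18.7% with curcumin added to LPS. LPS raised 2 and lowered none: Olr1, the lectin-like receptor for oxidised lipoprotein, rose at least 9.90-fold (adjusted p = 0.00114), and Cd14, the LPS co-receptor, by 1.99 ± 0.42 (adjusted p = 0.0175; 0.169 with spike-in scaling). With curcumin alone limma called none of the 13, 4 having an unadjusted p below 0.05. With slide as a block 2 passed as higher and 2 as lower, against 42.1% of all genes called. Added to LPS, curcumin raised none and lowered 3, Olr1 (−3.33 ± 0.71, adjusted p = 0.0119), Scara3 (−1.60 ± 0.36, adjusted p = 0.0142) and Cd14 (−1.54 ± 0.42, adjusted p = 0.0308). Olr1 was well above background on 1 of the 3 LPS+curcumin arrays. It passed the filter only through the LPS arrays, so its rise and its fall both rest on the arrays that let it be tested. The list's median change was −0.08, 0.48 and 0.02 in these 3 comparisons, beside 0.01, 0.41 and 0.32 over all genes.

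Of the other C-type lectins, 24 of 42 were tested. LPS raised 3: Cd69, a lymphocyte and macrophage activation marker (8.19 ± 1.03, adjusted p = 0.000594), the natural killer receptor ligand Clec2d (4.26 ± 0.97, adjusted p = 0.0266; 0.103 with spike-in scaling) and the selectin Sele (at least 10.4-fold, adjusted p = 0.0124). Added curcumin lowered 4 and raised 2 of the 24, beside 5.99% lower and 12.7% higher over all genes. Cd69 fell by 6.47 (adjusted p = 0.00335) and Clec2d by 4.22 (adjusted p = 0.0165), and both were well above background on 1 of the 3 LPS+curcumin arrays. Cd69 passed the filter only through the LPS arrays, so its rise and its fall both rest on the arrays that let it be tested. Sele was well above background on no untreated array and on 2 curcumin arrays. Mrc2, a receptor for collagen, rose at least 3.15-fold with LPS present (adjusted p = 0.0265) and at least 17.0-fold without it (adjusted p = 0.0024). It was well above background on 2 of the 3 LPS+curcumin arrays. Mrc2 passed the filter only through the curcumin arrays, so its rise with curcumin alone rests on the arrays that let it be tested. Curcumin alone raised 4 of these 24 lectins and lowered 1, beside 21.9% higher and 7.28% lower over all genes. The lowered lectin was Thbd, the thrombin receptor thrombomodulin (−3.66 ± 0.91, adjusted p = 0.0164). The rise of Clec4g (1.22 ± 0.31, adjusted p = 0.0163) was 0.11 with spike-in scaling. The list's medians were 0.02, 0.31 and 0.14 for LPS, curcumin and curcumin added to LPS.

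The adaptors, kinases and other signalling proteins behind the lectin receptors were also counted, 20 of 23 being tested. LPS raised 2, the kinases Src (1.64 ± 0.36, adjusted p = 0.0226) and Lyn (0.82 ± 0.20, adjusted p = 0.0398). With spike-in scaling neither was called (adjusted p = 0.254 and 0.457) and 1 gene of the list was lower, Inpp5d, a lipid phosphatase. With slide as a block 5 were higher and none lower, against 7.79% of all genes called. Curcumin added to LPS lowered 4 of the 20 and raised none, beside 18.7% of all genes called (5.99% lower and 12.7% higher). The 4 were Syk, the kinase recruited by these receptors (−2.24 ± 0.46, adjusted p = 0.0104), Malt1, a protease of the complex downstream of Syk (−2.51 ± 0.55, adjusted p = 0.0151), Lyn (−1.21 ± 0.20, adjusted p = 0.00414) and the phosphatase Ptpn6 (−1.32 ± 0.32, adjusted p = 0.0194). With slide as a block 6 were lower and 3 higher, against 28.9% of all genes called. Curcumin alone lowered Malt1 (−1.54 ± 0.49, adjusted p = 0.0414) and Vav3 (−1.01 ± 0.29, adjusted p = 0.0268) and raised Cbl (1.55 ± 0.27, adjusted p = 0.00311), which was 0.44 and not called with spike-in scaling. The adaptor Tyrobp differed by −0.09 with LPS and 0.47 with added curcumin, and Fcer1g by 0.29 and 0.30, none of them called. The list's medians were 0.22, 0.16 and −0.22.

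Among the other soluble collectins and lectin pathway proteins, 3 of 9 were tested. Curcumin raised 2, the mannose-binding lectin Mbl2 (at least 8.44-fold, adjusted p = 0.00315) and the protease Masp2 (1.31 ± 0.22, adjusted p = 0.00253), and on top of LPS the same 2 rose, Mbl2 at least 2.06-fold (adjusted p = 0.0368) and Masp2 by 0.72 ± 0.22 (adjusted p = 0.0409). Masp2 differed by 0.20 and −0.02 with spike-in scaling. Mbl2 passed the filter only through the curcumin arrays. Its rise with curcumin alone, and its place among the 3 tested, rest on the arrays that let it be tested. The rise of Mbl2, like that of Colec11, accompanied the hepatocyte markers given above, whose part was not tested.

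The partners of Scarb1 and Cd36 in lipid uptake and export numbered 15, of which 14 were tested. LPS raised 1, the tetraspanin Cd82 (0.86 ± 0.19, adjusted p = 0.0198; 0.299 with spike-in scaling). Curcumin raised Pdzk1, the scaffold that binds Scarb1 (4.62 ± 0.84, adjusted p = 0.00361), and lowered Lima1 (−1.45 ± 0.48, adjusted p = 0.0429). On top of LPS it raised Pdzk1 (3.81 ± 0.84, adjusted p = 0.0135) and the lysosomal cholesterol transporter Npc1 (0.83 ± 0.17, adjusted p = 0.00946; 0.09 and not called with spike-in scaling), and lowered 2, among them the cholesterol exporter Abca1 (−2.08 ± 0.63, adjusted p = 0.0436).

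The calls of these lists for LPS+curcumin against LPS changed when LPS+curcumin replicate 1 was left out. The calls were then 4 higher and 4 lower among the scavenger receptors, 7 and 6 among the C-type lectins, 4 and 7 among the signalling proteins, 3 and 0 among the collectins and 6 and 3 among the lipid uptake partners, against 54.8% of all genes. The falls were then −8.08 for Cd69, −5.70 for Clec2d, −4.32 for Olr1, −3.70 for Malt1, −2.89 for Abca1 and −2.87 for Syk. The fitted rises were 5.84 for Mrc2, against 3.69 with all arrays, 5.17 for Pdzk1 and 4.51 for Mbl2, against 3.10. With slide as a block the calls were 1 higher and 3 lower, 3 and 7, 3 and 6, 2 and 0, and 3 and 3 in the same order of lists, against 28.9% of all genes.

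In limma's fit of all 12 arrays no gene of the 5 lists was called between LPS+curcumin and curcumin alone (unadjusted p below 0.05 for 2, 3, 3, 0 and 0 genes in the same order) or for the interaction (1, 5, 2, 0 and 1). Without LPS+curcumin replicate 1 the interaction was called for 6, against 437 of all 19323 genes: Cd69 (−6.98), Olr1 (−4.80), Clec2d (−4.61), Sele (−3.66), Malt1 (−2.15, adjusted p = 0.0192) and Syk (−2.10, adjusted p = 0.0134). With slide as a block it was called for 1 gene, Sele (−6.01, adjusted p = 0.0469), against 229 of all genes. Without LPS+curcumin replicate 3 it was called for 3, Sele, Mrc2 and Cd82, against 221 of all genes. LPS+curcumin then differed from curcumin alone in 3, Mrc2 (−4.26), Ager (−2.34) and Malt1 (1.99), against 205 of all genes.

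**Figure D5:**
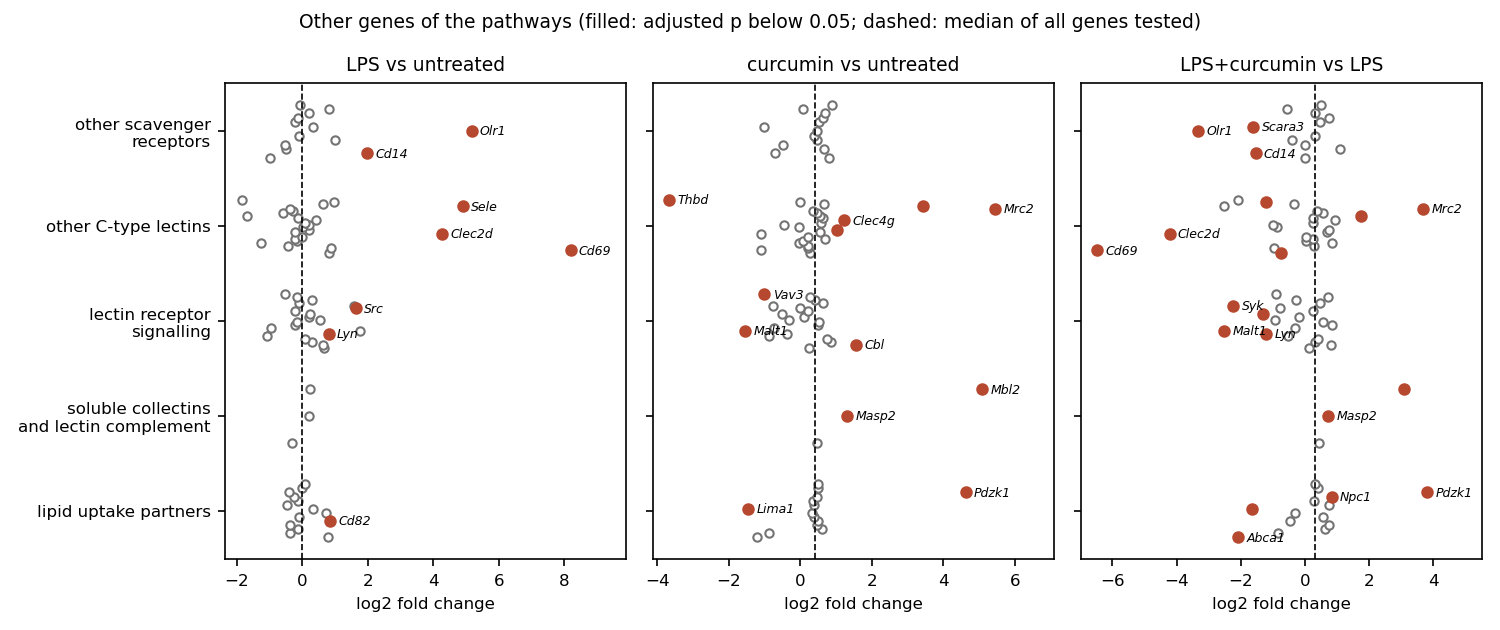
Log2 fold changes of every tested gene of the 5 related lists in 3 comparisons, 1 point per gene, with the lists on the vertical axis; filled points have an adjusted p below 0.05 and the dashed line is the median of all genes tested. Cd69, which passed the filter only through the LPS arrays, rises by 8.19 with LPS and falls by 6.47 with added curcumin. Pdzk1 rises by 4.62 with curcumin.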

How the data were processed

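Total RNA of 12 BV-2 samples was amplified, labelled with Cy3 and measured in 1 colour on Agilent arrays, per the labels' protocols. The deposited scanner files hold spot intensities from Agilent's Feature Extraction software (10.5.1.1 per the file headers, 9.1 per the submitters' processing notes), with background already subtracted; the deposited value table matched them within 0.398% and served as an alternative input. Probes (41174, of which 25097 matched a symbol) were named by accession through RefSeq annotation of GRCm38.p6.

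From these, log2 intensity was computed here relative to the 75th percentile of the array's non-control spots, without outlier spots. Tested probes were well above background on every array of some group, and the brightest probe stood for a gene. Some genes passed only through the group where they were high. Among them were Scarf1, Mrc2 and Mbl2 (curcumin) and Olr1 and Cd69 (LPS). limma 3.58.1 in R 4.3.3, with data.table (1.17.8) and jsonlite (2.0.0), fitted 4 group means, with a threshold of 0.05 on the adjusted p. The limma fit was tested on simulated data, with noise drawn independently for each array. For genes not well above background in a group, folds are lower bounds: the bright mean against a floor averaged over the dim arrays, the floor of an array being its lowest well-above-background signal or, if higher, the probe's own signal.

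Genes described and lists counted were chosen with earlier results of these data known. Named genes of the lists are up to 3 per list and comparison with the smallest adjusted p and no overlap of arrays; others named (Ptpn6, Mbl2 with LPS, Tyrobp, Fcer1g, Inpp5d, Ager) were singled out after their values were seen. One gene of the lists of scavenger receptors was left out of its list and is not reported here. The most similar genes are the 3 with the highest Pearson r. Replicate number and slide coincide in the file headers, and same-numbered samples deviated together (18 correlations from −0.02 to 0.71, 16 above 0.1), so slide was fitted as a block in an alternative. The precision is limited by 3 arrays per group.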

Additional observations from a re-analysis of the deposited data

Results flagged for a closer look

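The effect of curcumin on Marco differed with and without LPS when slide was a block (interaction −4.39, adjusted p = 0.00195) and without LPS+curcumin replicate 1 (−5.07, adjusted p = 0.0256), both by limma, and not in the analysis of all arrays without a block (adjusted p = 0.0772). Within slides, Marco was higher with curcumin than untreated on all 3 slides. It was lower with LPS+curcumin than with LPS on slides 1 and 3 (−3.41 in the fit of all arrays), the slide 2 spot being left out as an outlier. The same interaction was called for Clec4e without LPS+curcumin replicate 1 (−2.05, adjusted p = 0.0116) and not with that array (−1.17).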

How the results depend on the processing

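With LPS, 4 of the 9 genes were called (5.73% of all genes), against 2 with normexp background correction (1.02%), 2 with median scaling (3.41%) and 1 with spike-in scaling (3.16%), and 0 to 4 when single arrays or a whole replicate were left out. With curcumin the count was 2 (29.2%). It was 1 (26.7%) when the probe had to be well above background on all 12 arrays, which removes Scarf1 before any test. The count was 4 with slide as the replicate block (42.1%) and 4 in a fit of only the groups compared (54.6%). With arrays left out it was 0 to 4. For LPS+curcumin against LPS it was 4 (18.7%), against 1 with normexp (0.461%), 7 with the replicate block (28.9%) and 0 in a fit of only the groups compared (1.55%), and 0 to 7 with arrays left out. For the interaction it was 0 (0.73%), against 1 with the block (1.19%) and 0 to 2 with arrays left out. The cause of these changes was not tested. Leaving out replicate 2, with 8 arrays kept, ended every call among the 9 genes in the first 3 comparisons. Calls over all genes then fell from 1107, 5637 and 3621 to 196, 20 and 9, so the loss was not limited to these 9 genes. The highest counts for curcumin, LPS+curcumin against LPS and the interaction (4, 7 and 2) were reached without LPS+curcumin replicate 1. Of all genes 9581, 10586 and 437 were then called.

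Of all alternatives for single genes, 1089 kept direction and call, 57 lost and 30 gained the call, and 45 changed sign, all of them for differences that were not called. With normexp, the curcumin change was −0.22 for Scarb1 and −0.42 for Clec4d, Scarb1 differed by 0.37 between LPS+curcumin and curcumin, and the interaction was −0.17 for Cd36 and 0.13 for Clec4d. With quantile scaling the Cd36 interaction was −0.08. With median scaling the curcumin change was −0.24 for Scarb1, −0.033 for Cd36 and −0.54 for Clec4d, Scarb1 differed by −0.10 between LPS+curcumin and LPS, and Clec5a by −0.043 between LPS+curcumin and curcumin. With spike-in scaling the curcumin change was −0.11 for Marco, −0.51 for Scarb1, −0.30 for Cd36 and −0.80 for Clec4d, and Scarb1 differed by −0.11 between LPS+curcumin and LPS. With outlier spots kept, Marco differed by −0.75 between LPS+curcumin and curcumin. With arrays left out, the sign also turned within these ranges: for the curcumin change of Msr1 from −0.60 to 0.41, for LPS+curcumin against curcumin from −0.59 to 0.23 in Msr1, from −0.26 to 0.15 in Clec5a, from −0.49 to 0.85 in Marco, from −3.08 to 0.18 in Scarf1 and from −0.68 to 0.0024 in Scarb1, and for the interaction from −0.29 to 0.26 in Cd36 and from −0.29 to 0.39 in Scarb1.

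Over all genes the calls ranged from 196 to 2397 with LPS (1107 as reported), from 20 to 10544 with curcumin (5637), from 9 to 10586 for LPS+curcumin against LPS (3621), from 4 to 205 for LPS+curcumin against curcumin (41) and from 0 to 437 for the interaction (141). Signal limits Scarf1 on arrays without curcumin, where it was near background, and Colec11 was also dim there.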
